A study of Mus musculus with 20 samples.

Results

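Junction genes of barrier-forming cells were described in tanycyte pulldowns and whole tissue, across all libraries of the study: the claudins Cldn1, Cldn3, Cldn10 and Cldn12, occludin (Ocln), zonula occludens 1 (Tjp1) and connexin 43 (Gja1). They were taken by symbol, with earlier results of these data known, and make up 7 of the 44674 genes in the deposited count table. Of these 7 genes, 6 passed the expression filter and could be tested, and Cldn3 could not.

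Tanycytes are elongated glial cells that line the floor of the third ventricle. Their end feet reach the portal capillaries of the median eminence, which are fenestrated and leaky. At the median eminence the barrier between blood and cerebrospinal fluid is therefore formed by tight junctions between neighbouring tanycytes, at their apical side. In a tight junction, claudins and occludin close the cleft between cells, and zonula occludens scaffolds tie them to the actin cytoskeleton. Gap junctions, built from connexins, instead let small molecules pass from cell to cell.

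RNA bound to tagged ribosomes was immunoprecipitated (IP) from pooled arcuate and median eminence tissue, and RNA of the same lysate was kept as input. All mice carried 1 copy of a Cre-dependent L10a-GFP ribosomal transgene at ROSA26, and an adeno-associated virus with Cre behind the Dio2 promoter was injected into the lateral ventricle at 12 weeks of age, 4 weeks before tissue was taken. The groups were IR fl/fl mice on normal chow diet (IRΔTan NCD, 3 pools), in which Cre also removes exon 4 of the insulin receptor gene Insr, IR wt/wt mice on high-fat diet (control HFD, 4 pools) and IR wt/wt mice on chow (control NCD, 3 pools), each with an IP and an input library per pool. The sample labels call the controls IRmKate2, a name for mice given a virus with mKate2 in place of Cre, whereas the series design and methods give them the Cre virus. The HFD began at about 4 weeks of age by the labels and is given as 8 weeks long in the series design. Males and females were pooled, 4 to 7 hypothalami a pool by the protocol and 5 to 7 mice by the design. The tag follows Dio2 promoter activity rather than a junction gene, so the IP stands for the cells in which that promoter and the virus were active.

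Libraries held 29469000 to 59385000 estimated counts, fewest in control HFD IP (29469000 to 34715000). Insr checked the labels, with 18.9, 13.3 and 21.0 CPM (counts scaled to library depth with TMM factors) in IRΔTan IP and 50.5 to 53.5 CPM in control NCD IP. In control NCD pools, 7 of 8 tanycyte markers and 6 of 6 tested ependymal markers were higher in IP than in input, while 5 of 5 neuronal and 6 of 6 oligodendrocyte markers were lower. Of all genes tested, 34.1% were higher and 33.0% lower. Ependymal markers were thus concentrated in the IP beside those of tanycytes, with a median log2 of 5.52 against 3.95 for tanycyte markers. In the same comparison 3 of 5 tested choroid plexus markers (Clic6, Folr1 and Ttr) were higher. Of 5 tested pars tuberalis and pituitary markers 2 were higher (Cga and Pomc) and 1 lower (Tshb). The part of these cells in the junction gene values was not tested. Choroid plexus markers, mostly Ttr, summed to 52.6, 427, 39.4 and 595 CPM in control HFD IP (pools 1 to 4) and to 106 to 125 CPM in control NCD IP. Control HFD pools 2 and 4 thus stood apart, also in their inputs, as did IRΔTan IP pool 3 at 468 CPM. Results on HFD are therefore also given without pools 2 and 4 where that changes them.

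Tjp1, the scaffold, was the most abundant of the 7 genes per length. Its mean over 10 IP libraries was 37.0 CPM per kb of median coding transcript, against 27.8 CPM per kb over the 10 inputs. Gja1 followed with 18.4 CPM per kb in IP and 22.5 in input, then Cldn12, an atypical claudin without the tail that binds Tjp1, with 12.3 in IP and 15.8 in input, and Cldn10, which forms ion-selective paracellular channels, with 8.59 in IP and 10.3 in input. Ocln ranked 5 in IP and 6 in input, with 2.91 CPM per kb in IP and 0.539 in input. Cldn1, a sealing claudin of tight epithelia, changed places with it, with 0.702 CPM per kb in IP and 0.933 in input. Cldn3, another sealing claudin, came last in both fractions, with 0.0915 CPM per kb in IP and 0.0125 in input.

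**Figure D1:**
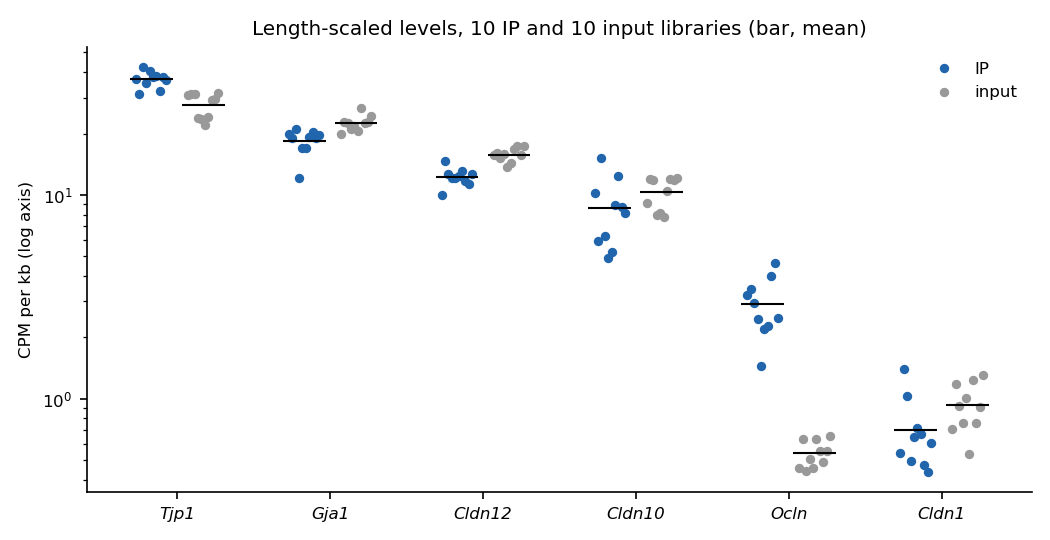
Length-scaled level (CPM per kb, log axis) of 6 junction genes in each of 10 IP (blue) and 10 input (grey) libraries, with bars at the means. Tjp1 is the most abundant in both fractions, and Ocln is the only gene whose IP and input points are well apart. Cldn3, at or near 0, is not drawn.

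Cldn3 (ENSMUSG00000070473, chr5:134986214-134987472 on the plus strand of GRCm38) was at the edge of detection. It had 1, 15 and 0 counts in IRΔTan IP, 0, 5, 2 and 4 counts in control HFD IP, and 0, 8 and 1 counts in control NCD IP. No input library held more than 2 counts. Its highest level, 0.479 CPM in IRΔTan IP pool 2, stands against a limit of 0.0778 to 0.169 CPM that 3 counts correspond to in these libraries. Differences between groups were not detectable at this depth, and Cldn3 also overlaps Wbscr25 on the opposite strand in a library type that does not mark strand.

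The levels of the other genes in each library are shown by group in the plot of CPM by fraction. Over the 6 groups, the ranges of groups next to each other in order of mean overlapped for Cldn1, Cldn10, Cldn12 and Gja1. Only Ocln and Tjp1 had neighbouring groups that did not overlap, and how many of all genes have such gaps was not counted. For Ocln these were IRΔTan IP above control HFD IP, and control HFD IP above the highest input group. For Tjp1 they were control NCD IP above IRΔTan input, and control NCD input above control HFD input.

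**Figure D2:**
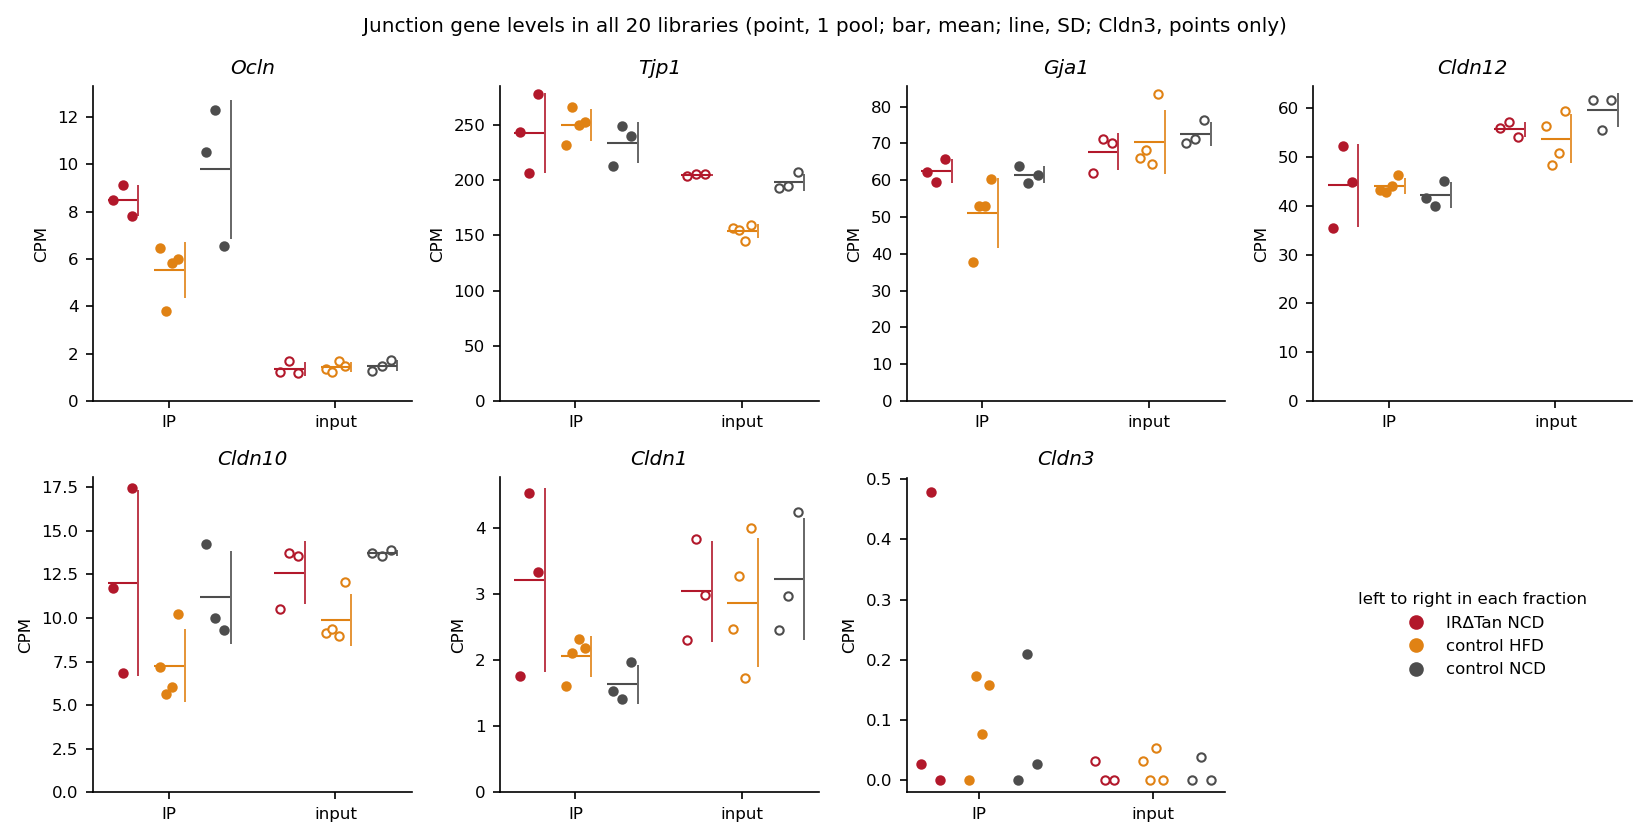
Level (CPM) of each junction gene in all 20 libraries, IP filled and input open, with IRΔTan NCD, control HFD and control NCD from left to right in each fraction. Bars are means and lines SDs over 3, 4 and 3 pools. Ocln is high in every IP library and at 1.17 to 1.73 CPM in every input, and Tjp1 is lowest in control HFD input. Cldn3 is drawn as points alone.

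The promoters of Ocln and Cldn10, which were lower in HFD IP, and of Tjp1, which was lower in HFD input, are printed to show the sequences before the annotated starts of the genes that changed. They hold the 250 bases before a RefSeq start on GRCm38.p6, with GC boxes (GGGCGG or its reverse complement CCGCCC) and the homeodomain core TAATTA in capitals. In GENCODE M21 on the same build, Ocln (ENSMUSG00000021638) spans chr13:100496507-100552718 on the minus strand, Cldn10 (ENSMUSG00000022132) chr14:118787908-118875489 on the plus strand and Tjp1 (ENSMUSG00000030516) chr7:65296165-65527781 on the minus strand. The Tjp1 window precedes an inner start that lies within this span, and is not upstream of the whole gene.
Ocln chr13:100552719-100552968 minus strand: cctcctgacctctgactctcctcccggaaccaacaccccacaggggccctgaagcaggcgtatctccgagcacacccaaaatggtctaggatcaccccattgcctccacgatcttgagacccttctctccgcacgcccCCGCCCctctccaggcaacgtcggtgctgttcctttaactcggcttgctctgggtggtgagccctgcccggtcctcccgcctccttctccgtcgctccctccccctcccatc
Cldn10 first start chr14:118787621-118787870 plus strand: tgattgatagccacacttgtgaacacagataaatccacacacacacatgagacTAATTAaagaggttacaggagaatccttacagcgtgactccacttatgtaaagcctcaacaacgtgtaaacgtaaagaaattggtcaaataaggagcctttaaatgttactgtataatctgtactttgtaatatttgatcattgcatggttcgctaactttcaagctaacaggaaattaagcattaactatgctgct
Cldn10 inner start chr14:118854700-118854949 plus strand: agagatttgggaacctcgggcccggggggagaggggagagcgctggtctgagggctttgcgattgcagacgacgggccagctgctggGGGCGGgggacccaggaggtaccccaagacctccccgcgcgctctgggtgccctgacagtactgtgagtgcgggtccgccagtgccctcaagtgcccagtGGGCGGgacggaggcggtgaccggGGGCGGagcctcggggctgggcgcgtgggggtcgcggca
Tjp1 inner start chr7:65371245-65371494 minus strand: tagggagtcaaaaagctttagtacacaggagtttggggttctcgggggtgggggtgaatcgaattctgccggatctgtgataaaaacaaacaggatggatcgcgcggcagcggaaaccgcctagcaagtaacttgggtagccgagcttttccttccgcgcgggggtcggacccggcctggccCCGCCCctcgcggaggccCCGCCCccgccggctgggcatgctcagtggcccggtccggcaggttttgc
The printed Ocln window was 64.0% GC with 1 GC box, and a window at a nearby Ocln start, which overlaps it and is not printed, was 69.2% GC with 1. The Tjp1 window was 63.2% GC with 2. The starts of Cldn10 differed from each other, with 36.0% GC and 1 TAATTA upstream of the first start and 72.4% GC and 3 GC boxes upstream of the inner one. All 7 genes matched the promoter table, with 11 windows in all, some of them overlapping, and 6 of the 7 genes had a GC box in at least 1 window, Gja1 being the exception. Over all 32851 windows of this length, 32.7% held GGGCGG on either strand and 4.84% held TAATTA. These are shares of single windows, so the count of genes, some with several windows, cannot be set against them. Searches of both strands for TATAAA, held by 12.4% of all windows, and for CACGTG, held by 6.02%, found neither in any of the 11. These matches describe letters and not bound sites, and the counts per gene do not separate the transcripts of the Cldn10 starts.

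The comparison of IP with input asks which junction RNAs are concentrated on the ribosomes of the tagged cells. Ocln was the clearest case. It had 8.49, 9.13 and 7.81 CPM in IRΔTan IP, against 1.20, 1.68 and 1.17 CPM in the inputs of these pools. In control HFD pools it had 6.47, 3.81, 5.82 and 6.0 CPM in IP, against 1.33, 1.21, 1.68 and 1.47 CPM in input. In control NCD pools it had 10.5, 12.3 and 6.56 CPM in IP, against 1.28, 1.47 and 1.73 CPM in input. Every IP library was thus above every input library, and the lowest IP, control HFD pool 2, was also the IP with the lowest summed tanycyte markers (400 CPM). Control HFD pool 1 had a higher sum (1012 CPM) than control NCD pool 1 (944 CPM) but less Ocln, and a link was not tested. By edgeR's quasi-likelihood test Ocln was 6.41-fold higher in IP than in input in IRΔTan (log2 2.68 ± 0.27, SE), 3.86-fold in control HFD (log2 1.95 ± 0.24) and 6.72-fold in control NCD (log2 2.75 ± 0.27), with adjusted p of 1.06e-06, 7.42e-06 and 8.69e-07. These calls held in every alternative in which Ocln was tested. In IRΔTan 2 of the 6 tested genes were higher in IP and 1 was lower, where 34.3% and 32.8% of all 13520 genes tested were. In control HFD 2 were higher and 2 lower (27.9% and 26.5% of all 13558 genes), and in control NCD 2 were higher and 3 lower (34.1% and 33.0%), so these shares are near those of all genes.

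Tjp1 was the other gene called higher in IP in each group, by a smaller factor. It had 244, 206 and 278 CPM in IRΔTan IP, against 204, 206 and 205 CPM in input. In control HFD pools it had 232, 266, 250 and 253 CPM in IP, against 157, 155, 145 and 159 CPM in input. In control NCD pools it had 213, 249 and 240 CPM in IP, against 193, 195 and 207 CPM in input. No IP library fell below the inputs of its own group, but IRΔTan pool 2 was level with its input, at a ratio of 1.00. The fold was 1.21 in IRΔTan (log2 0.27 ± 0.09, adjusted p = 0.0200), 1.62 in control HFD (log2 0.70 ± 0.07, adjusted p = 9.11e-07) and 1.21 in control NCD (log2 0.27 ± 0.09, adjusted p = 0.0200) by edgeR's test. The chow calls did not hold without pool 1 or 3 of IRΔTan or without pool 2 or 3 of control NCD.

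The remaining tested genes were not concentrated in the IP. Of these, Cldn12 (ENSMUSG00000046798) is at chr5:5489537-5514958 on the minus strand, Gja1 (ENSMUSG00000050953) at chr10:56377330-56402513 on the plus strand and Cldn1 (ENSMUSG00000022512) at chr16:26356642-26371841 on the minus strand. Cldn12 had 35.4, 52.3 and 44.9 CPM in IRΔTan IP (input 56.1, 57.1 and 54.0), 43.2, 42.9, 44.1 and 46.4 CPM in control HFD IP (input 56.3, 48.5, 50.9 and 59.5) and 41.7, 40.0 and 45.1 CPM in control NCD IP (input 61.8, 55.6 and 61.6). Its IP was below its input in every pool, and edgeR called it lower in IP in IRΔTan (log2 −0.30 ± 0.12, adjusted p = 0.0355), control HFD (−0.29 ± 0.08, adjusted p = 0.00477) and control NCD (−0.47 ± 0.12, adjusted p = 0.00328). Scaling to library totals, which raises the median of all genes in IP over input by 0.31, 0.52 and 0.40 in these groups, ended the call in IRΔTan and control NCD and turned it to 0.24 in control HFD. The IRΔTan call was also lost without IRΔTan pool 1 or 3 or control NCD pool 1 (−0.33 to −0.16).

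Gja1 had 62.2, 59.6 and 65.9 CPM in IRΔTan IP (input 62.0, 71.2 and 70.2), 37.8, 53.0, 53.0 and 60.4 CPM in control HFD IP (input 66.1, 68.3, 64.4 and 83.4) and 63.8, 59.2 and 61.5 CPM in control NCD IP (input 70.1, 71.2 and 76.3). IP and input overlapped in IRΔTan and did not on HFD or in control NCD. By edgeR, Gja1 was lower in IP in control HFD (log2 −0.47 ± 0.12, adjusted p = 0.00384) and control NCD (−0.21 ± 0.08, adjusted p = 0.0269) and not called in IRΔTan (−0.09 ± 0.08, adjusted p = 0.332). With library totals the values were 0.21, 0.06 and 0.18 in IRΔTan, control HFD and control NCD, so the direction for Gja1 depends on scaling. The control NCD call was also lost without NCD pool 2 (−0.20) or 3 (−0.17). Gja1 is also made by astrocytes. Of 6 astrocyte markers 4 (Aqp4, Slc1a2, Agt and Aldh1l1) were lower in control NCD IP than in input, where 33.0% of all genes were. Gfap was higher and Slc1a3 was not called. The part of those cells in the Gja1 level was not tested.

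Cldn10 had 11.7, 6.83 and 17.4 CPM in IRΔTan IP (input 10.5, 13.7 and 13.6), 7.18, 5.61, 6.02 and 10.2 CPM in control HFD IP (input 9.12, 9.37, 8.97 and 12.1) and 14.2, 9.99 and 9.31 CPM in control NCD IP (input 13.7, 13.5 and 13.9). The fractions overlapped in every group and no difference was called, with edgeR log2 values of −0.04 ± 0.26, −0.44 ± 0.19 (adjusted p = 0.0608) and −0.26 ± 0.26. The control HFD value was called when IP and input were paired by pool (−0.47), by DESeq2 (−0.43) and without HFD pool 4 (−0.55).

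Cldn1 had 1.77, 4.53 and 3.34 CPM in IRΔTan IP (input 2.31, 3.83 and 2.99), 1.61, 2.11, 2.33 and 2.18 CPM in control HFD IP (input 2.48, 3.27, 1.73 and 4.00) and 1.53, 1.42 and 1.97 CPM in control NCD IP (input 2.46, 2.97 and 4.25). IP was called below input in control NCD (log2 −0.94 ± 0.37, adjusted p = 0.0358, edgeR), where the fractions did not overlap, and was not called in IRΔTan (0.11 ± 0.36) or control HFD (−0.46 ± 0.27), where they did. The control NCD call was lost with library totals (−0.56), with all genes of the table (−0.81), with the length trend removed (−0.81) and without pool 3 of IRΔTan or any pool of control NCD.

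**Figure D3:**
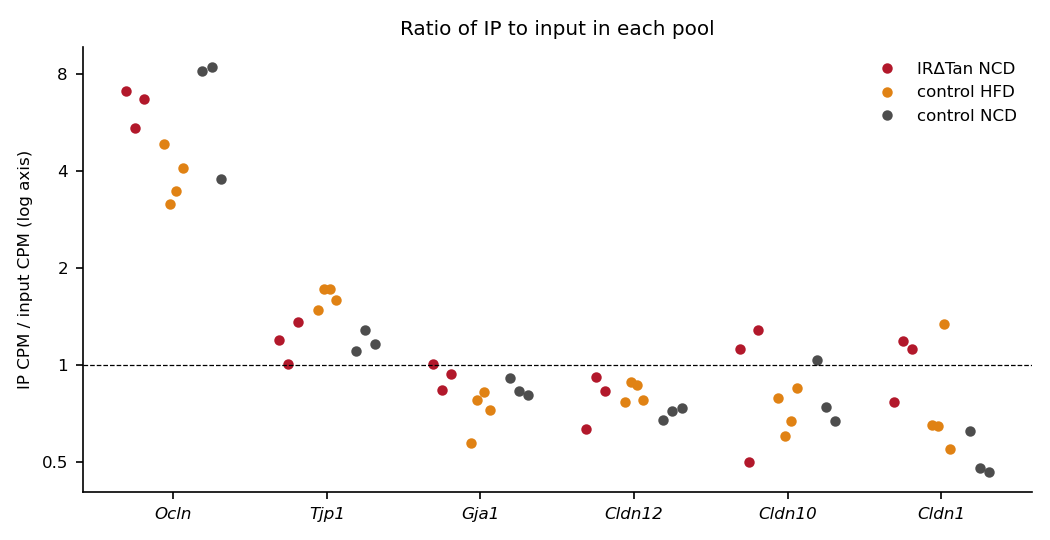
Ratio of IP CPM to input CPM in each pool (log axis) for the 6 tested genes, with IRΔTan NCD, control HFD and control NCD from left to right. Ocln lies between 3.15 and 8.39 in all pools, Tjp1 between 1.00 and 1.72, and Cldn12 below 1 in all 10 pools.

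Deletion of the insulin receptor in tagged cells was compared on chow. No junction gene changed in IRΔTan IP by edgeR's test: 0 of 6 were called, as against 0.0592% of all 13520 genes (8 genes), with 0 by DESeq2. At an unadjusted p under 0.05 there was 1 of 6, as against 1857 of the 13520 genes. For Ocln the IRΔTan IP values above, 7.81 to 9.13 CPM, lay inside the control NCD IP range of 6.56 to 12.3 CPM (log2 −0.21 ± 0.24, 95% interval −0.73 to 0.31). The intervals were −0.15 to 0.25 for Tjp1, −0.14 to 0.19 for Gja1, −0.19 to 0.32 for Cldn12 and −0.46 to 0.66 for Cldn10, all on the log2 scale. The intervals were thus narrowest for Tjp1 and Gja1, which are abundant, and wider for Ocln and Cldn10.

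Cldn1 had the largest difference in IRΔTan IP. IRΔTan pools 2 and 3 (4.53 and 3.34 CPM) were above all control NCD pools, and pool 1 (1.77 CPM) was among them, so that the groups overlapped. It averaged 3.21 ± 1.39 CPM in IRΔTan IP and 1.64 ± 0.294 CPM in control NCD IP (SD, n = 3 each). The log2 difference was 0.97 ± 0.37 (95% interval 0.18 to 1.76) with an adjusted p of 0.276 by edgeR over all genes. In the input it was −0.08 ± 0.36, and the difference between fractions, 1.05 ± 0.51, was not called either (adjusted p = 1.00, edgeR). Choroid plexus epithelium also expresses Cldn1. Its markers summed to 112, 87.8 and 468 CPM in IRΔTan IP pools 1 to 3 and to 106 to 125 CPM in control NCD IP, and their part in the Cldn1 values was not tested. In IRΔTan input the log2 differences of all 6 genes lay between −0.14 and 0.05, and 0 were called, against 0.00740% of all genes. At an unadjusted p under 0.05 there were 0 of 6, against 184 of the 13520 genes.

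HFD feeding of control mice was accompanied by lower Ocln and Cldn10 in the IP, with no junction gene of the 7 called higher. Of 6 tested genes 2 were lower and 0 higher by edgeR, where 26.4% of all 13558 genes were lower and 25.7% higher. At an unadjusted p under 0.05 there were 3 of 6, against 7930 of the 13558 genes. The share of genes called is thus not above that of all genes, and the median log2 difference of the 6 was −0.11 against −0.04 over all genes. In bulk tissue, fewer cells of a type and less RNA per cell cannot be told apart.

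Ocln was 6.47, 3.81, 5.82 and 6.0 CPM in control HFD IP and 10.5, 12.3 and 6.56 CPM in control NCD IP. All 4 HFD pools were below all 3 NCD pools, although HFD pool 1 and NCD pool 3 nearly met. It averaged 5.53 ± 1.18 CPM in control HFD IP (SD, n = 4) and 9.78 ± 2.94 CPM in control NCD IP (SD, n = 3). The level was 1.78-fold lower on HFD (log2 −0.83 ± 0.23, adjusted p = 0.00702, edgeR), and an exact two-sided permutation test of the CPM gave p = 0.0286, the smallest that 4 against 3 pools allow. The call was lost without NCD pool 2 (−0.63) and without HFD pools 2 and 4 (−0.68). That last setting was chosen after the data were seen. In the input Ocln was low in both groups, at 1.33, 1.21, 1.68 and 1.47 CPM on HFD and 1.28, 1.47 and 1.73 CPM on NCD (log2 −0.06, 95% interval −0.63 to 0.51). The difference between fractions was −0.77 ± 0.35 (adjusted p = 0.0955, edgeR) and was called only without NCD pool 3 (−1.11).

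Cldn10 was 7.18, 5.61, 6.02 and 10.2 CPM in control HFD IP and 14.2, 9.99 and 9.31 CPM in control NCD IP. HFD pools 1 to 3 were below all NCD pools and HFD pool 4 was among them. The level was 1.55-fold lower on HFD (log2 −0.63 ± 0.20, adjusted p = 0.0158, edgeR), while the exact permutation test of the CPM gave p = 0.114. The edgeR call was lost when IP libraries were fitted alone (−0.61), once the dependence on transcript length was removed (−0.32), without HFD pool 2 (−0.52) and without NCD pool 1 (−0.42). The input moved in the same direction, with 9.12, 9.37, 8.97 and 12.1 CPM on HFD and 13.7, 13.5 and 13.9 CPM on NCD, groups that did not overlap (log2 −0.48 ± 0.20, adjusted p = 0.134, edgeR). The difference between fractions was −0.15 ± 0.28. Cldn10 is also expressed by astrocytes, whose 6 markers summed to 2288 to 3369 CPM in control HFD input and 2984 to 3703 CPM in control NCD input, highest on HFD in pool 4, as for Cldn10. In IP they summed to 1090 to 1537 CPM on HFD, highest in pool 2, where Cldn10 was lowest, and to 1134 to 1191 CPM on NCD. Their part in the Cldn10 values was not tested.

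Gja1 was 37.8, 53.0, 53.0 and 60.4 CPM in control HFD IP and 63.8, 59.2 and 61.5 CPM in control NCD IP. HFD pools 1 to 3 were below all NCD pools (exact permutation test, p = 0.0857). The log2 difference of −0.27 ± 0.13 missed the threshold over all genes (adjusted p = 0.0805, edgeR), and it passed without HFD pool 4 (−0.37), without HFD pools 2 and 4 (−0.44), with the pool number as a block (−0.37) and with the length trend removed (−0.37). The input gave −0.04 ± 0.13. The lowest Gja1 value was in HFD pool 1, which had the highest tanycyte marker sum on HFD (1012 CPM). The part of cell content in the Gja1 values was not tested.

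Tjp1 was not called in HFD IP, where it had 232, 266, 250 and 253 CPM on HFD and 213, 249 and 240 CPM on NCD (log2 0.09 ± 0.07, adjusted p = 0.317, edgeR). In the whole-tissue input it fell on HFD, to 157, 155, 145 and 159 CPM, against 193, 195 and 207 CPM on NCD. Input groups did not overlap (exact permutation test, p = 0.0286), and the level was 1.29-fold lower (log2 −0.36 ± 0.07, adjusted p = 0.00644, edgeR). This was the only gene of 6 called lower in HFD input, and 0 were called higher, where 5.41% and 6.28% of all genes were. The call was lost without HFD pool 3 (−0.30). The log2 change in IP was 0.45 ± 0.10 above the change in input (adjusted p = 0.00331, edgeR), the only such difference called among the 6, where 21.8% of all genes were called in this direction and 18.4% in the other. Tjp1 has the longest transcripts of the 7, with a median of 6576 bases. Once the dependence of each library on transcript length was removed, the difference between fractions was 0.04 and the IP value turned to −0.21, which was called lower.

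Cldn12 and Cldn1 were not called in either fraction on HFD. Cldn12 differed by 0.05 in IP (95% interval −0.12 to 0.23) and −0.15 in input (−0.32 to 0.02), and Cldn1 by 0.32 in IP (−0.31 to 0.96) and −0.18 in input (−0.80 to 0.43), all on the log2 scale.

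**Figure D4:**
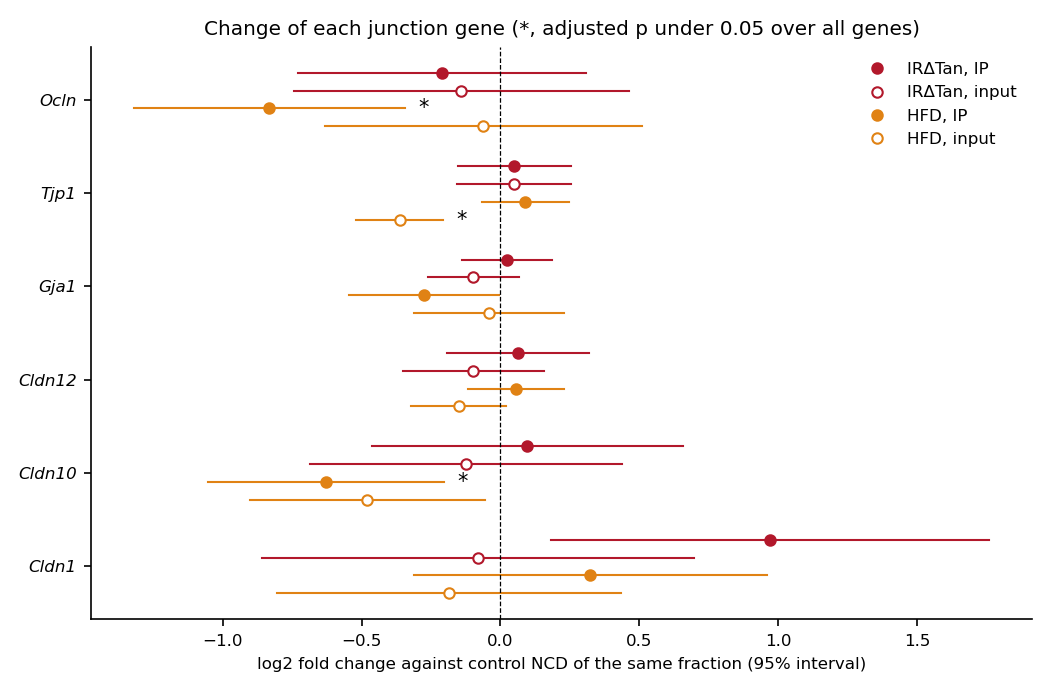
Log2 fold change (points) with 95% interval (lines) of the 6 tested genes, IRΔTan and HFD, each against control NCD of the same fraction, IP filled and input open. Asterisks mark an adjusted p under 0.05 over all genes: Ocln (−0.83) and Cldn10 (−0.63) in HFD IP and Tjp1 (−0.36) in HFD input.

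Markers of other cells moved with diet in the same IP libraries. On HFD, 5 of 6 tested ependymal markers and 3 of 8 tanycyte markers (Crym, Frzb and Lhx2) were lower, and 5 of 5 neuronal, 3 of 6 oligodendrocyte, 3 of 5 microglia (C1qa, Csf1r and Tmem119) and 2 of 6 astrocyte markers (Agt and Aldh1l1) were higher. Of 4 tested endothelial markers Flt1 was lower. Over all genes 26.4% were lower and 25.7% higher in this comparison, so the tanycyte and astrocyte counts are near those shares. Tanycyte markers summed to 400 to 1012 CPM in control HFD IP and 944 to 1285 CPM in control NCD IP, ependymal markers to 232 to 423 CPM and 517 to 587 CPM, and neuronal markers to 6725 to 8514 CPM and 4313 to 5103 CPM. Dio2 itself, whose promoter drives Cre, was lower on HFD (log2 −1.32 ± 0.16, edgeR). The part of these shifts in the Ocln and Cldn10 values was not tested. Markers of endothelial cells, which carry the classical blood-brain barrier, were low in both fractions. The 8 markers summed to 11.6 to 21.9 CPM in control HFD IP (input 16.6 to 22.7). They summed to 14.7 to 33.2 CPM in control NCD IP (input 15.1 to 20.2) and 15.7 to 47.5 CPM in IRΔTan IP (input 14.9 to 20.3). These ranges overlapped, so the low sums do not show that endothelial RNA was depleted from the IP. By edgeR, Flt1 was called higher in IP than in input in IRΔTan and control NCD. The endothelial claudin Cldn5 was called lower in IP in control HFD, and stayed at or below 1.66 CPM in every IP library. Between IRΔTan IP and control NCD IP, 0 markers of any of the 10 lists were called.

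Control HFD IP was also set against IRΔTan IP directly, where genotype and diet differ together. Ocln was 6.47, 3.81, 5.82 and 6.0 CPM in HFD IP and 8.49, 9.13 and 7.81 CPM in IRΔTan IP, groups that did not overlap (log2 −0.62 ± 0.22, adjusted p = 0.0234, edgeR). Cldn10 (−0.72 ± 0.25, adjusted p = 0.0206) and Gja1 (−0.29 ± 0.12, adjusted p = 0.0435) were also lower, with overlapping groups, and 0 genes were higher. By the exact permutation test p was 0.0286 for Ocln, 0.171 for Cldn10 and 0.0857 for Gja1. Of the 6 genes 3 were thus called lower, where 25.7% of all 13442 genes were, and 24.6% were higher. With IP libraries fitted alone, and without HFD pool 2, 0 of the 6 were called. Both HFD and IRΔTan comparisons with chow used the same control NCD libraries.

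The 7 genes sit among other junction genes, and 86 of these in 4 lists were examined in the same fits: other membrane proteins of the tight junction, its cytoplasmic scaffolds, adherens junctions and gap junctions. In control NCD, 57 of the 86 were tested and 12 were higher and 20 lower in IP than in input, where 34.1% and 33.0% of all genes were. Lsr, which seals the corners where 3 cells meet, was the only one of 15 tested membrane proteins called higher, with 3.45, 5.14 and 3.53 CPM in IP and 0.550, 0.752 and 0.590 CPM in input (log2 2.72 ± 0.33). No IP library of Lsr lay within the range of its inputs.

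Gap junction genes as a list were low in the IP, with 7 of 12 tested lower and 0 higher in control NCD (33.0% and 34.1% of all genes) and a median log2 of −1.33, against 0.01 over all genes. Gjb6, an astrocyte connexin, had 12.1 CPM in IP and 62.5 CPM in input on average (log2 −2.34 ± 0.21), and Gjc3, an oligodendrocyte connexin, had 37.2 CPM in IP and 150 CPM in input (−1.98 ± 0.21). The value for Gja1 in this comparison was −0.21. Cldn11, the claudin of myelin, was lower in IP (−1.81 ± 0.20), as were 6 of 6 oligodendrocyte markers, of which it is one.

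In IRΔTan IP 0 of 57 tested junction genes were called, against 0.0592% of all genes. On HFD, 20 of 56 were higher and 10 lower in IP, where 25.7% and 26.4% of all genes were, with a median of 0.02 against −0.04 over all genes. Differences between the lists were not tested, and the same shares of all genes stand against the counts of each. Membrane proteins had 1 higher and 3 lower of 13 tested and a median of −0.58. Lsr was among the lower ones, with 1.76, 1.14, 1.98 and 2.07 CPM in HFD IP and 3.45, 5.14 and 3.53 CPM in NCD IP, groups that did not overlap (log2 −1.23 ± 0.31, adjusted p = 0.00391, edgeR). The others were Cldnd1, a claudin domain protein, and Jam2, a junctional adhesion molecule (−0.35 ± 0.13). The one higher gene was Cldn11 (1.05 ± 0.24). Marveld2, the occludin relative at tricellular contacts, gave −0.99 ± 0.43 and missed the threshold (adjusted p = 0.0620, edgeR).

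The cytoplasmic scaffolds had 11 higher and 5 lower of 22 tested on HFD and a median of 0.20. Of those higher, Amot, Amotl1, Cgn, Magi1, Magi3, Mpp5 and Patj were called lower in IP than in input in control NCD. Afdn, Cgnl1 and Mpdz were not called there. Of those lower on HFD, Pard6a, Pard6b, Tjap1 and Ybx3 were called higher in IP than in input in control NCD, and Prkcz lower. The part of shifts in the cells of the IP in these values was not tested. Cgn, or cingulin, had 6.02, 11.6, 7.06 and 7.75 CPM in HFD IP and 4.33, 1.65 and 2.67 CPM in NCD IP, with no overlap (log2 1.49 ± 0.29). Mpdz, a scaffold with many PDZ domains, had 81.0, 113, 98.9 and 96.0 CPM on HFD and 53.8, 60.6 and 50.8 CPM on NCD (0.82 ± 0.10), again with no overlap. Cgnl1 rose by 0.48 ± 0.18. In adherens junctions 5 were higher and 2 lower of 11 tested, with β-catenin (Ctnnb1) at 676 CPM in HFD IP and 438 CPM in NCD IP (0.62 ± 0.10) and N-cadherin (Cdh2) at 149 CPM and 113 CPM (0.40 ± 0.12). In gap junctions 3 of 10 tested were higher and 0 lower, among them the neuronal connexin Gjd2 (0.62 ± 0.18), which moved in the direction of the neuronal markers. Ocln at −0.83 and Cldn10 at −0.63 lay just below the median of the membrane proteins, and Tjp1 at 0.09 below that of the scaffolds. In HFD input 0 of 56 were higher and 5 lower (Ildr2, Jam2, Ctnnd1, Plekha7 and Gjb6), where 6.28% and 5.41% of all genes were.

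**Figure D5:**
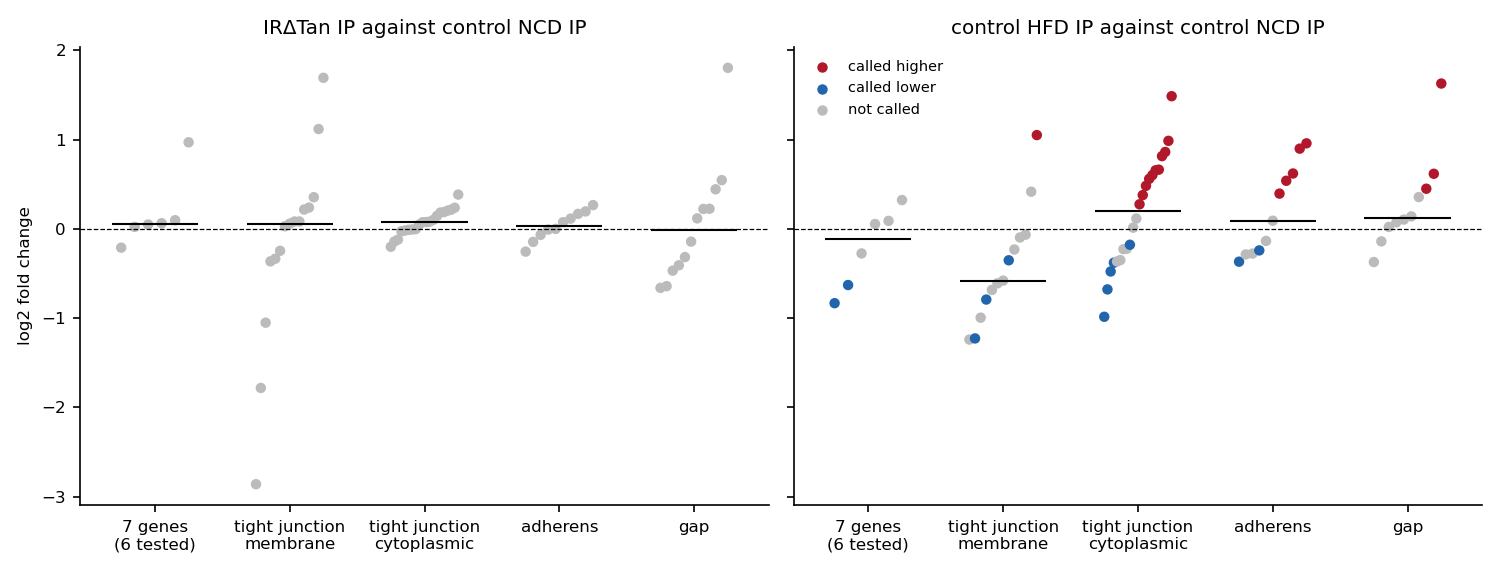
Log2 fold change in IP of the 6 tested junction genes and of 4 lists of other junction genes, IRΔTan (left) and control HFD (right), each against control NCD. Points are genes, black bars list medians, and colours mark genes called higher (red) or lower (blue). No gene is called in IRΔTan, and on HFD the median is −0.58 for membrane proteins and 0.20 for scaffolds. Differences between the lists were not tested.

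The genes whose log2 levels were most like each member over the 10 IP libraries were also listed, among 9931 candidates at most. For Ocln these were Cwc15 (r = 0.98), Cldnd1 (0.97) and Rabl3 (0.97), and for Cldn10 Ntrk2 (0.98), Jam2 (0.96) and Nim1k (0.95). For Tjp1 they were Xpo7 (0.97), Fxr1 (0.93) and Vps35l (0.92), for Cldn12 Tmem68 (0.94), Slc3a2 (0.89) and Mreg (0.89), for Gja1 Uba3 (0.89), Ufsp2 (0.87) and Tiprl (0.86), and for Cldn1 Noc3l (0.87), Mob3a (0.86) and Slc16a1 (0.86). Jam2 and Cldnd1 are themselves membrane proteins of the tight junction list. Among the members the highest values were 0.74 between Cldn1 and Cldn12 and 0.61 between Cldn10 and Gja1, and Ocln and Tjp1 gave −0.46. The 10 libraries share their diet and genotype groups, and the genes listed are the highest of all candidates, so the r values describe these libraries alone.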

How the data were processed

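RNA bound to GFP-tagged ribosomes and RNA of the same lysate were sequenced from 10 tissue pools, giving 20 libraries. The authors ran the nf-core rnaseq pipeline and deposited unscaled estimated counts from Salmon (0.14.1 in the submitters' processing notes, which also list STAR, DESeq2 1.30.0 and GRCm38.p6). The kit does not mark strand. Of the deposited estimated counts, 28.0% were not whole. The authors also deposited tables of log2 fold changes and adjusted p-values of their 2 IP comparisons, of which only gene IDs and names were used here.

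Estimated counts were rounded and tested in R 4.3.3 with edgeR 4.0.16 (quasi-likelihood test, TMM), for genes in the authors' tables that passed the expression filter at a minimum count of 10, with Benjamini-Hochberg adjustment over all genes tested and a threshold of 0.05. The fit for IRΔTan held 12 libraries, that for HFD 14 and that of HFD against IRΔTan 20, with a mean per group and fraction, so IP and input shared an estimate of the spread. For levels, CPM used TMM factors of the 20 libraries together, with library sizes over the genes tested. Intervals from 3 counts cover counting error only, and CPM of single genes were compared by exact permutation tests. The test was checked on simulated counts with 200 changed genes. Lengths and positions came from GENCODE M21 and promoters from RefSeq, both on GRCm38.

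The members and lists were chosen with earlier results of these data known. Beside the members, the text names other junction genes marked for naming in the lists, Insr, Dio2, the 3 genes most like each member over the IP libraries (log2(CPM + 0.5), mean of at least 10 CPM) and cell type markers. Ildr2, Ctnnd1, Plekha7, the scaffolds named for their calls in IP against input and the cell type markers called were named after their values were seen. The pools are tissue pools of several mice, so p-values measure the spread between pools. Groups came from the sample labels. The IP and the input of each pool are aliquots of 1 lysate. The reported tests did not use this pairing, which entered only in the alternative with a block for pool. Deviations of the IP and the input of a pool from the group means correlated at 0.06 to 0.41 across genes, over 0.1 in 9 of 10 pools. Alternatives were other scalings (median-ratio size factors, library totals), DESeq2 1.42.0, other gene filters, other sets of libraries, blocks for pool and pool number, removal of a trend in transcript length, and each pool left out.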

Additional observations from a re-analysis of the deposited data

Results flagged for a closer look

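Cldn10 in control HFD input had 1 pool apart from the others, with 12.1 CPM in pool 4 and 8.97 to 9.37 CPM in pools 1 to 3. The gap was 0.871 of the whole range, above Dixon's critical value at 95% for 4 samples. Of the 14 sets of 4 pools examined this way, chance flags about 1 in 20. Tjp1 on HFD differed between fractions, by 0.45 on the log2 scale (adjusted p = 0.00331 by edgeR's interaction test), with 0.09 in IP and −0.36 in input. In this direction 21.8% of all genes were called, and the Tjp1 call was lost with the length trend removed.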

How the results depend on the processing

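For single genes, 1017 values under alternative settings were compared with those reported: 894 kept their direction and side of the threshold, 53 lost the call, 15 gained one, 49 changed sign with neither value passing, and 6 turned with at least 1 value called. Those that turned were Tjp1 with the length trend removed (−0.21 in HFD IP and −0.29 in HFD IP against IRΔTan IP) and, with library totals, IP against input for Gja1 (0.21 in IRΔTan, 0.064 in control HFD and 0.18 in control NCD) and Cldn12 in control HFD (0.24). Library totals also raised the median of all genes in those comparisons of IP with input. The cause of the turns was not tested.

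Counts of junction genes called changed as follows. Lower in HFD IP, 2 as reported, became 1 at a mean of at least 5 CPM, where Ocln was not tested, 1 with IP alone, 3 with the block by pool number or the length trend removed, and 1 to 3 with a pool left out. Lower in HFD input, 1, became 2 with inputs alone, with the length trend removed and with the replicate block by pool number, and 0 to 1 with a pool left out. IP against input in IRΔTan, 2 higher and 1 lower, became 3 higher and 0 lower with library totals, 0 lower with all genes of the table or the length trend removed, and 1 to 2 higher and 0 to 1 lower with a pool left out. In control HFD, 2 higher and 2 lower became 1 higher at 5 CPM, 3 higher and 0 lower with library totals, 1 lower with all genes, and 3 lower with DESeq2, either block or without HFD pool 4. In control NCD, 2 higher and 3 lower became 0 lower with library totals, 1 with all genes, 2 at 5 CPM, with all 20 libraries or with the length trend removed, and 1 to 2 higher and 1 to 3 lower with a pool left out. Higher in the HFD difference between fractions, 1, became 2 with library totals and 0 with the length trend removed, and lower, 0, became 0 to 1 with a pool left out. Lower in HFD IP against IRΔTan IP, 3, became 1 with library totals, 0 with IP alone, 2 at 5 CPM or without HFD pools 2 and 4, and 0 to 3 with a pool left out. The count of 0 in IRΔTan IP held in all 16 alternatives.

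Nothing in the labels says that pool numbers pair samples across groups. Same-number pools of different groups correlated at −0.36 to 0.29. For control NCD against IRΔTan the range was 0.08 to 0.23 in IP and −0.02 to 0.29 in input. A block by number called Gja1 in HFD IP (−0.37) and Cldn10 in HFD input (−0.62) and in IP against input of control HFD (−0.47). Pairing IP and input by pool called Cldn10 in control HFD (−0.47) and changed no other call. Counts near 3 limit Cldn3, and 1 to 2 CPM limit Ocln in input and Cldn1.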
